A study of Caenorhabditis elegans with 8 samples.

Results

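Meiotic chromosome genes encode the proteins that pair homologous chromosomes, hold them together, break and repair their DNA, and so prepare germ cells for the meiotic divisions. The mRNAs of 10 such genes (him-3, htp-1, syp-1, syp-2, him-8, zyg-12, spo-11, rad-51, him-14 and him-17) were followed here among 12240 gene IDs with reads. They were chosen by WormBase ID from a list of genes, not by their reads, but with earlier results of these data known. The count table holds IDs without symbols, and each symbol was paired with its ID as given with the list. All 10 symbols were found in the RefSeq gene table for the assembly WBcel235, which does not hold the IDs themselves.

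The reads come from iCLIP, in which ultraviolet light fixes RNA to the proteins that touch it, the protein is purified and the attached RNA is sequenced. FOG-3 is a nematode protein required for germ cells to become sperm. Both groups consisted of Caenorhabditis elegans larvae at the L4 stage, grown on plates, that carried 1 genome-integrated copy of FOG-3 with a FLAG tag. The FOG-3 libraries (n = 4) were purified with the FLAG antibody, and the control libraries (n = 4) went through the same steps without it. Whole larvae were lysed, so the material held the germline together with all other tissues, and the promoter of the tagged copy is not given in the sources used here. The FOG-3 libraries are lettered A to D and the controls W to Z here, since the column names cannot be linked to the numbered samples of the labels. Both sets are described as biological replicates, but the p-values below measure only the spread between these libraries.

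In C. elegans meiosis, HORMA-domain proteins such as HIM-3 and HTP-1 form the chromosome axis, and SYP-1 and SYP-2 form the central region of the synaptonemal complex between paired axes. HIM-8 binds the pairing centre of the X chromosome, and ZYG-12 links chromosome ends through the nuclear envelope to the cytoskeleton. SPO-11 makes the DNA double-strand breaks that start recombination, RAD-51 loads onto the broken ends to invade the homologue, HIM-14 (the worm MSH4) promotes crossovers, and HIM-17 is a chromatin protein needed for break formation. These meiotic steps take place in germ cells. In whole larvae, few cells with an mRNA and little of it in each cell cannot be told apart.

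Reads on these genes were few, and nearly all came from FOG-3 libraries. The 10 genes held 74 reads in all 8 libraries, 70 of them in FOG-3 libraries and 4 in controls. FOG-3 libraries A, B, C and D held 11, 10, 17 and 32 of these reads, from 80529, 97054, 76790 and 186739 gene-assigned reads. Controls W, X, Y and Z held 3, 0, 0 and 1, from 30631, 18676, 14964 and 74892 gene-assigned reads. The deepest FOG-3 library thus had the most reads on the genes, whereas the deepest control had fewer than control W. FOG-3 libraries supplied 94.6% of the reads on the 10 genes, 76.0% of the reads on all gene IDs and 88.1% of the reads outside the 10 most abundant gene IDs. A gene had a median of 3.5 reads, against 5 for all gene IDs, not corrected for transcript length. The median share of reads that came from FOG-3 libraries was 100% both for the 10 genes and for all gene IDs.

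**Figure D1:**
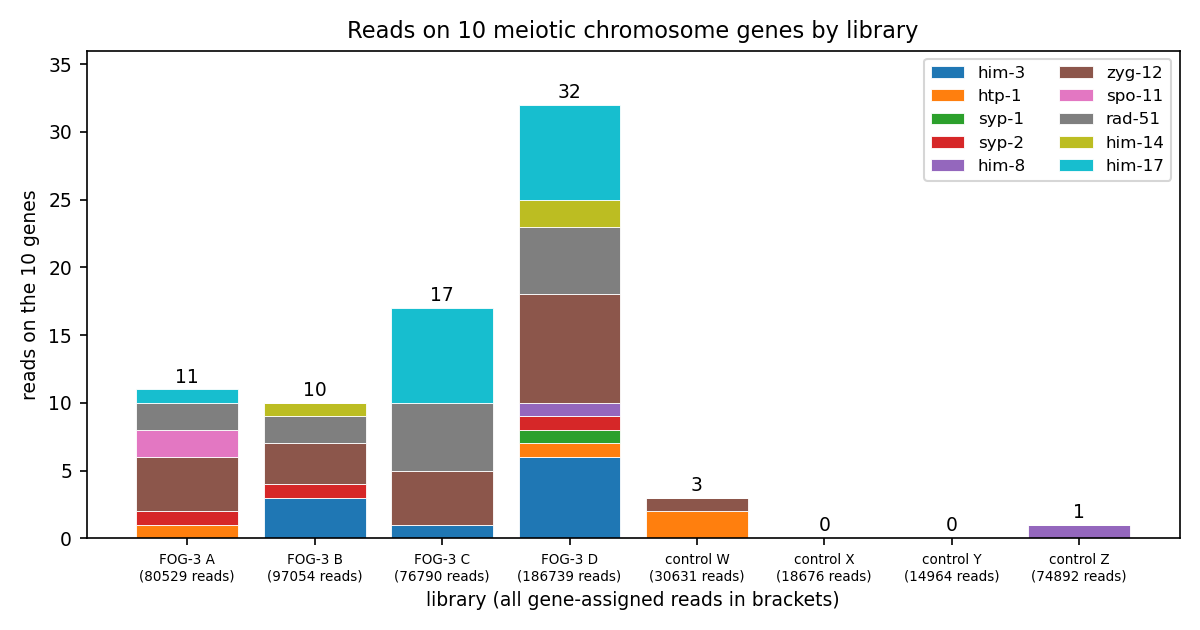
Number of reads on each of the 10 genes (stacked colours, y axis) in each library (x axis, with all gene-assigned reads of that library in brackets). The FOG-3 libraries held 10 to 32 reads on the genes and the controls 0 to 3.

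Each gene was compared between the groups to ask whether its mRNA was recovered with FOG-3 above the no-antibody background. None (0 of 10) passed edgeR's default filter on low counts, whose poorest passing gene ID had 66 reads. The richest of the 10 had 20. The filtered fit of 886 gene IDs called 45.3% higher and 27.5% lower in FOG-3 (adjusted p under 0.05 in edgeR's quasi-likelihood test after TMM scaling). TMM scaling set the library sizes from the bulk of these 886 gene IDs, not of all 12240. The 10 genes are not among the 886 and have no value in that fit. A fit of all 12240 gene IDs without a filter called 4.35% higher and 2.03% lower, and 0 of the 10 genes in either direction. Its median log2 fold change of FOG-3 over control was 1.10 over all gene IDs and 1.93 over the 10 genes. Of all gene IDs, 74.2% had a fitted log2 fold change above 0. Without adjustment, 0 of the 10 genes and 9.84% of all gene IDs had a p under 0.05 and a higher level in FOG-3. DESeq2 without a filter gave an adjusted p to 3 of the 10 genes (zyg-12, rad-51 and him-17) and called 0 of these 3, where it called 32.8% of the 3934 gene IDs with an adjusted p higher. The other 7 genes had no adjusted p from DESeq2. Scaling each library on the gene ID with the most reads over all libraries, also without a filter, called him-3, zyg-12, rad-51 and him-17 higher. This was 4 of 10, against 2870 (23.4%) of all gene IDs called higher and 3 called lower. The edgeR adjusted p of these 4 ran from 0.0106 to 0.0436 under that scaling. With total counts and no filter it was 0.0595 for him-17, 0.0713 for rad-51, 0.163 for him-3 and 0.169 for zyg-12. Over all other edgeR alternatives it reached 0.771, for him-3 and zyg-12 without the 2 shallowest controls.

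The presence of reads was compared with that over all gene IDs. All 10 genes had a read in at least 1 FOG-3 library, and 7 of them had none in any control, a pattern shown by 56.0% of all gene IDs. None (0) had reads only in controls, as 2.93% of all gene IDs did. The other 3 (htp-1, him-8 and zyg-12) had reads in both groups, as did 41.1% of all gene IDs. Only zyg-12 and rad-51, 2 of 10, had a read in every FOG-3 library, against 35.2% of all gene IDs. The share of the 10 genes with a read was 60%, 50%, 40% and 90% in FOG-3 libraries A, B, C and D, where 53.2%, 62.4%, 55.1% and 81.05% of all gene IDs had one. In controls W, X, Y and Z it was 20%, 0%, 0% and 10%, against 18.7%, 9.30%, 9.003% and 35.4% of all gene IDs. In both sets of libraries the share among the 10 genes lay above that of all gene IDs in some libraries and below it in others. At an equal depth of 14964 reads, 18.8% ± 3.8 (SD, n = 4) of the 10 genes were expected to have a read in FOG-3 libraries and 3.57% ± 5.88 in controls, against 27.8% ± 2.3 and 10.7% ± 2.7 of all gene IDs.

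Among the axis genes, him-3 (WBGene00001862) had 0, 3, 1 and 6 reads in FOG-3 libraries A, B, C and D and 0 in every control. Its level was 12.04 ± 9.97 CPM (read counts scaled to library size, here with TMM factors, SD, n = 4) in FOG-3 libraries, and 1 of them had no read, as the controls did. The unfiltered edgeR fit gave an adjusted p of 0.621 for him-3. The other axis gene, htp-1 (WBGene00002041), had 1, 0, 0 and 1 reads in the FOG-3 libraries and 2, 0, 0 and 0 in controls W, X, Y and Z. It was 1 of 2 genes of the set with as many reads in controls as in FOG-3 libraries, him-8 being the other. Its fitted log2 fold change of FOG-3 over control was -2.47 ± 1.45 (SE, unfiltered edgeR fit, adjusted p = 0.466), and it turned to 1.83 without control W. The gene has a closely similar copy, htp-2, and how reads that map to both were counted is not given in the sources used here, so its reads are uncertain.

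The synaptonemal complex genes had the fewest reads of the functional groups, 4 in FOG-3 libraries and 0 in controls. For syp-1 (WBGene00006375) this was 1 read, in library D, and for syp-2 (WBGene00006376) it was 1, 1, 0 and 1 reads in A, B, C and D. The unfiltered edgeR fit gave both an adjusted p of 0.721. At the FOG-3 share of gene-assigned reads, 1.26 reads of this pair of genes would have been expected in all 4 controls together, so a difference was not detectable at this depth.

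Of the genes for pairing and attachment to the nuclear envelope, zyg-12 (WBGene00006997) had the most reads of the set. It had 4, 3, 4 and 8 reads in FOG-3 libraries A, B, C and D and 1, 0, 0 and 0 in controls W, X, Y and Z. These made 28.1 ± 6.55 CPM in FOG-3 libraries and 12.7 ± 25.3 CPM in controls (TMM-scaled, SD, n = 4). The 1 control read, in a shallow library, stood at 50.7 CPM, above all FOG-3 libraries, so the groups overlapped. The ratio of the pooled levels was 5.99 per gene-assigned read, with an exact 95% counting interval of 0.953 to 249, and 2.60 with TMM scaling, with an interval of 0.413 to 108. Both intervals include equality. The fitted log2 fold change of zyg-12 was 1.27 ± 1.28 (SE, unfiltered edgeR fit, adjusted p = 0.721), near the median of 1.10 over all gene IDs. It was 4.66 without control W and 0.717 without control Z. The X pairing gene him-8 (WBGene00001867) had 1 read in FOG-3 library D and 1 in control Z, the deepest library of each group. Its adjusted p was 0.720 in the unfiltered edgeR fit, and its fitted log2 fold change turned from -2.12 to 1.16 without control Z.

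The genes of break formation and repair had no read in any control and 34 in FOG-3 libraries, the most of the functional groups, which otherwise hold 2 genes each where this one holds 4. Of these, rad-51 (WBGene00004297) had 2, 2, 5 and 5 reads in A, B, C and D, or 21.6 ± 11.9 CPM (TMM-scaled, SD, n = 4). It was the only 1 of the 10 genes whose lowest FOG-3 library lay above the highest control, which held for 14.3% of all gene IDs, and its adjusted p was 0.428 in the unfiltered edgeR fit. For him-17 (WBGene00001874) the FOG-3 reads were 1, 0, 7 and 7, or 22.1 ± 24.2 CPM, so that C and D held nearly all of them and B had none. Its adjusted p was 0.394 in the same edgeR fit, the lowest of the set. The break enzyme gene spo-11 (WBGene00004985) had 2 reads, both in library A, and him-14 (WBGene00001872) had 0, 1, 0 and 2 reads, with adjusted p-values of 0.721 for each in the unfiltered edgeR fit. In the WBcel235 gene table the loci of spo-11, him-14 and syp-1 each overlap 1 other protein-coding gene (enpl-1, nos-2 and F13A7.14), and without a stated strand setting their few reads cannot be assigned with certainty.

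**Figure D2:**
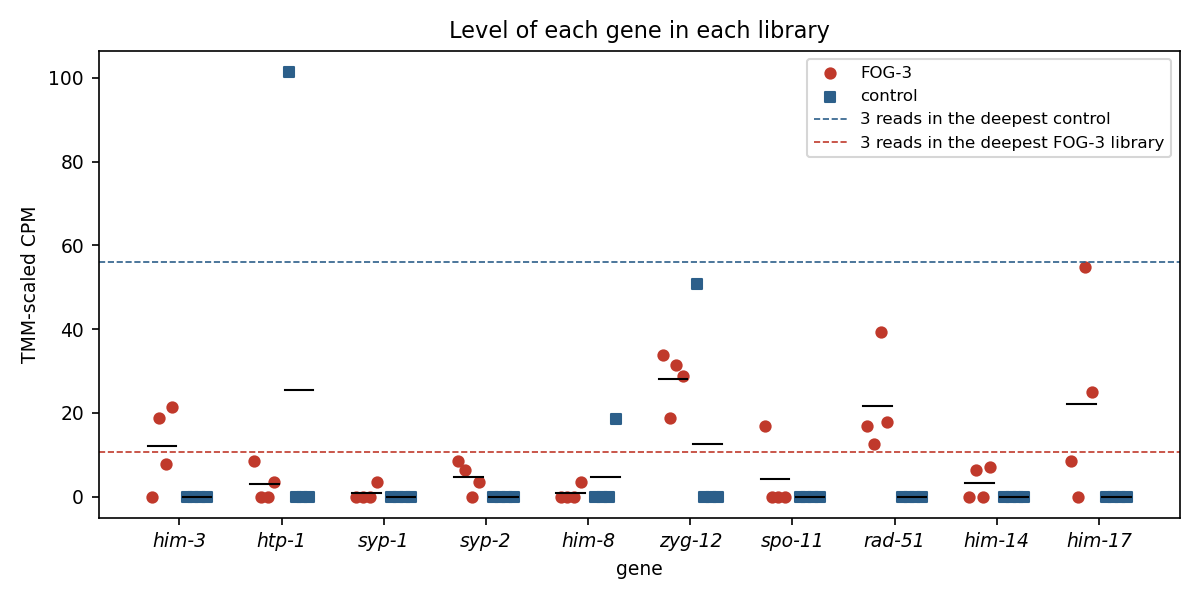
TMM-scaled CPM (y axis) of each gene (x axis) in each FOG-3 library (circles) and control (squares), with group means as black bars and dashed lines at the level of 3 reads in the deepest library of each group. The points of zyg-12 and rad-51 lay above 0 in all 4 FOG-3 libraries, and the 3 control points above 0 belong to htp-1, zyg-12 and him-8.

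The control depth set what could be seen for the genes without a control read. A count of 0 allows up to 3 reads, which over all 4 controls is 21.6 CPM of gene-assigned reads, or 32.1 CPM on the TMM scale. The pooled FOG-3 share of gene-assigned reads was 1.05 times that limit for him-3, 1.47 times for rad-51 and 1.58 times for him-17. These bounds, and those below, take the FOG-3 reads as exact, so they are not 95% limits of the ratio. Over all reads, those outside genes included, the bounds were 0.969, 1.36 and 1.45. None of the 3 bounds stayed above 1 with TMM scaling, where the pooled FOG-3 levels of 14.6, 20.4 and 21.9 CPM lay under the control limit, or without control Z, where the bounds fell to 0.486, 0.680 and 0.729. The bound for him-3 stayed above 1 only without FOG-3 library A or C, and ran from 0.729 to 0.944 without FOG-3 library B or D or control W, X or Y. That for him-17 fell to 1.02 without FOG-3 library C. At the pooled TMM-scaled FOG-3 level, rad-51 would have given 1.91 reads and him-17 2.05 reads in the 4 controls together. For the summed break formation and repair genes, the bound was 3.58-fold on gene-assigned reads and 1.55-fold with TMM scaling. Without control Z the same bounds were 1.65 and 0.661. The 6 genes with at most 3 reads in each group (htp-1, syp-1, syp-2, him-8, spo-11 and him-14) were given no fold. Intervals cover counting error only, and the bounds cover only that of the control count. It is not known whether PCR copies were collapsed.

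**Figure D3:**
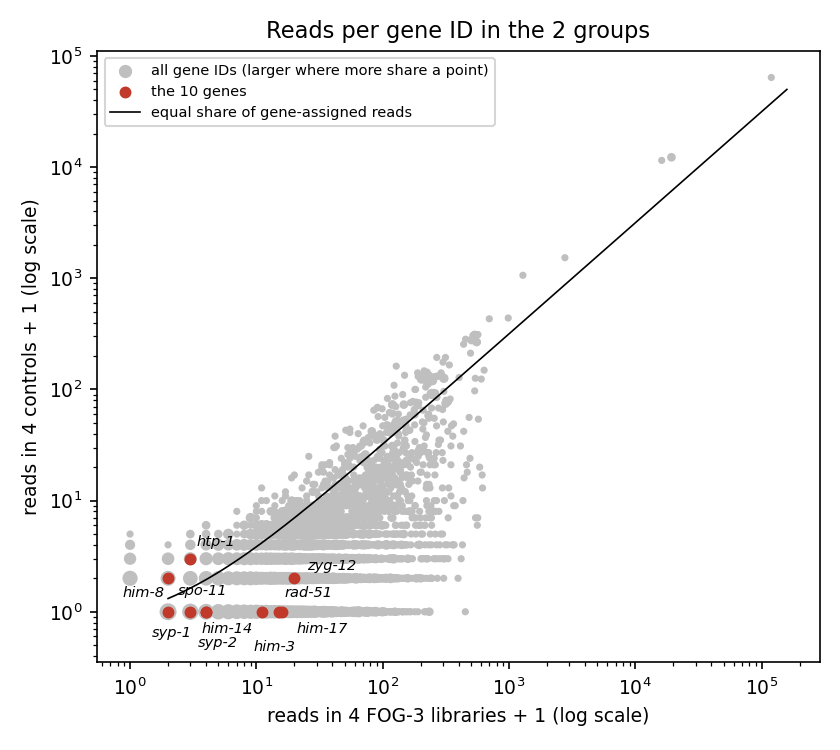
Reads in the 4 controls (y axis, plus 1, log scale) against reads in the 4 FOG-3 libraries (x axis, plus 1, log scale) for all 12240 gene IDs (grey, larger where more share a point) and the 10 genes (red, syp-2 and him-14 at the same point). The line marks an equal share of gene-assigned reads, and the 10 genes sit among the gene IDs with few reads, with 0 to 2 control reads each.

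Summed over the 10 genes, the level was higher in FOG-3 libraries per gene-assigned read, but the groups overlapped under the other denominators. As CPM of gene-assigned reads the sum was 137, 103, 221 and 171 in A, B, C and D and 97.9, 0, 0 and 13.4 in W, X, Y and Z. The lowest FOG-3 library, B, had an exact 95% interval of 49.4 to 189, and the highest control, W, one of 20.2 to 286, so this gap was within counting error. The means were 158 ± 50.6 and 27.8 ± 47.2 (SD, n = 4), and the ratio of the pooled shares was 5.52, with a counting interval of 2.06 to 20.8. With TMM scaling the means were 101 ± 30.4 and 42.7 ± 73.5 CPM, and control W, at 152 CPM, lay above every FOG-3 library. The pooled ratio was then 2.39, with a counting interval of 0.894 to 9.02. Over all reads, those outside genes included, the pooled ratio was 5.09 (counting interval 1.90 to 19.2), and control W, at 93.6 CPM, lay above FOG-3 library B, at 90.0 CPM. The 10 most abundant gene IDs took 41.0% of the gene-assigned reads of FOG-3 libraries and 74.8% of those of controls, which lowers the share left for all other genes in controls. Over the reads outside these 10 gene IDs, the pooled ratio was 2.36 (counting interval 0.881 to 8.89). Without control W the ratio was 17.2 per gene-assigned read and 7.55 with TMM scaling, where 1 control read remained. Without control Z the ratios were 3.40 and 1.36. No test was made on the sum.

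**Figure D4:**
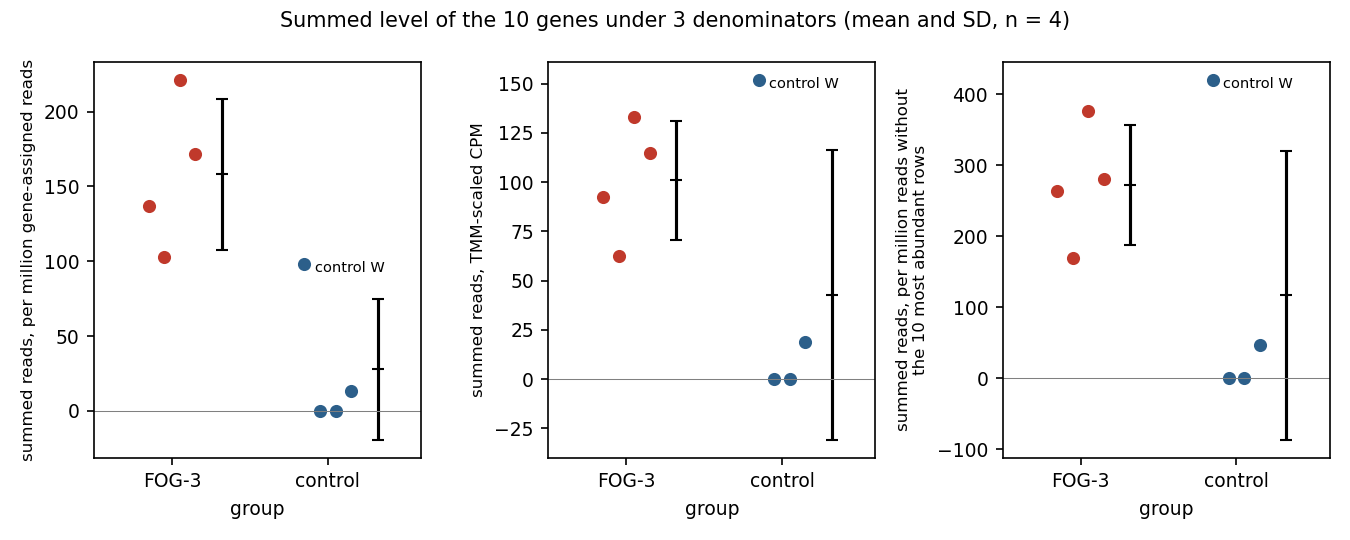
Summed reads of the 10 genes (y axis) in FOG-3 libraries (red) and controls (blue), as CPM of gene-assigned reads (left), as TMM-scaled CPM (middle) and as CPM of the reads outside the 10 most abundant gene IDs (right), with the mean and SD of each group (n = 4) in black. Control W, with 30631 gene-assigned reads, sits just below the lowest FOG-3 library on the left and above all FOG-3 libraries in the other panels.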

How the data were processed

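Raw counts of reads for each WormBase gene ID in 8 libraries were deposited by the authors as 1 table. STAR 2.4.2 and HTSeq were used, per the submitters' processing notes. Not given in the sources used here are the annotation, genome build and strand setting, and how multiply mapped reads and PCR copies were treated. The 2 rows that name no gene stayed out of library sizes and tests (0 columns were left unused). The main test was edgeR's quasi-likelihood F test (edgeR 4.0.16, R 4.3.3) with a term for group and TMM factors computed on rows passing edgeR's default filter of minimum count 10 and total 15, with Benjamini-Hochberg adjustment over all rows tested. As 0 of the 10 genes passed that filter, they are given by reads in each library and by the same fit without a filter. SEs are the fold change over the square root of F. Ratios of pooled levels have exact conditional 95% intervals, shares exact Clopper-Pearson intervals. The script was tested on simulated data, with changes planted only in rows expected to hold more than 10 reads per library. That test does not cover counts as low as those of the 10 genes. Alternatives used DESeq2 1.42.0 and limma-voom 3.58.1. All 10 genes were named by rule, and they and the tests were chosen with earlier results of these data known. Other meiosis genes and tissue markers, listed by symbol, were not analysed here because no table pairs their symbols with IDs.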

Additional observations from a re-analysis of the deposited data

Results flagged for a closer look

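In 9 of 19 groups of 4 libraries, 1 library stood apart from the others by Dixon's test. Its rate of about 1 flag in 20 groups by chance holds for normally distributed values, not for counts this low. For 6 of the 9 groups the library was the only one of its group with a read, which meets the test whatever the count. These were syp-1 and him-8 in FOG-3 library D (3.58 CPM each, TMM-scaled), spo-11 in FOG-3 library A (16.9 CPM), htp-1 and zyg-12 in control W (101 and 50.7 CPM) and him-8 in control Z (18.6 CPM). The other 3 were the sum over the 10 genes in control W, which was 97.9 CPM of gene-assigned reads, 152 CPM with TMM scaling and 421 CPM of the reads outside the 10 most abundant gene IDs. That sum rests on 3 reads, 2 of htp-1 and 1 of zyg-12.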

How the results depend on the processing

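The number of the 10 genes called higher in FOG-3 was 0 under every setting run but 1, though not every setting tested all 10. Without a filter and scaled on the most abundant gene ID it was 4, where 23.4% of all gene IDs were called higher. In the other fits of all libraries and all 12240 gene IDs the count of 0 stood against 2.11% (limma-voom) to 14% (total counts) of gene IDs called higher. Among these, DESeq2 gave an adjusted p to only 3 of the 10 genes. A filter of 1 CPM in 4 libraries left only 2 of them tested, zyg-12 and rad-51, where 673 of 5258 gene IDs were called higher. Without a filter, the count stayed at 0 as each library was left out in turn. In these fits, 386 of 12173 gene IDs (without control W) to 804 of 11851 (without FOG-3 library A) were called higher. Only 9 of the 10 genes had a read left without FOG-3 library A or D. With the default filter none of the genes was tested under any scaling, so those settings say nothing about them. The ratio of the summed shares was 5.52 on gene-assigned reads, and without 1 library at a time it ran from 3.40 to 17.2. Outside the 10 most abundant gene IDs it was 2.36, and ran from 1.22 to 7.51. With TMM scaling it was 2.39, and ran from 1.36 to 7.55. The low end was without control Z and the high end without control W under each denominator. Fitted log2 fold changes without a filter turned sign without control W for htp-1 (1.83), without control Z for him-8 (1.16), and with DESeq2 for syp-1 (-1.39), syp-2 (-0.10), spo-11 (-0.44) and him-14 (-0.41). With limma-voom they turned to -0.93 for him-3, -2.70 for syp-1, -1.95 for syp-2, -0.064 for zyg-12, -2.52 for spo-11, -0.25 for rad-51, -2.07 for him-14 and -0.73 for him-17, in a fit that called 3763 of 12240 gene IDs lower, among them syp-1 and him-8 (-3.13). The cause was not tested. Chosen after seeing the data were the sums with TMM scaling, the sums without 1 library under TMM scaling or outside the 10 most abundant gene IDs, and the counts of called genes without a filter beyond those with TMM, total counts and the most abundant gene ID. No paired analysis was possible because the columns carry no replicate numbers. Depth limits all values: no gene had more than 1 control library with a read.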
